A study of Mus musculus with 2 samples.

Results

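Prefix models are transcript structures that share the first introns of a longer transcript and then stop, so that their 3′ end lies upstream of the longer transcript's remaining exons. They were taken here from the 2 long-read transcript tables of mouse adrenal gland as every model with the novelty class ISM (incomplete splice match) and subtype Prefix in an annotated gene with at least 3 reads in either table. Models of both tables were joined when gene, strand and all introns were the same. This gave 1222 models in 951 genes, out of 8700 Prefix structures with any reads. Of the 107755 models of all classes in replicate 1, 325 were members, and of the 137106 in replicate 2, 1055 were. Members were thus chosen by their read counts in these tables: 411 structures stood at exactly 3 reads in the larger library and 1118 at 2, just outside.

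The study holds 1 group of 2 biological replicates, adrenal glands of male B6CASTF1/J mice aged 10 days, with no treatment, and total RNA with spike-in RNA added to both. A starting amount of 1 µg is given for replicate 2 alone. One label field numbers the animal of replicate 2 differently from another field, so it is unclear whether separate animals were used, and any test between the libraries measures the difference between 2 libraries. B6CASTF1/J is the F1 hybrid of C57BL/6J and CAST/EiJ, whereas all sequences printed here are reference sequence.

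A messenger RNA normally ends where the cleavage and polyadenylation machinery meets a signal such as AATAAA a short way upstream of the cut. A site of this kind inside an intron can compete with splicing and give a shorter RNA with its own last exon, and U1 snRNP is known to hold back such early cleavage. Long-read libraries are commonly primed on poly(A) tails, and a primer that anneals to a run of A inside an RNA gives a read that also stops early. A Prefix model can therefore be an RNA that ended early or a read that did, and the class alone does not tell them apart.

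The total depth was 971827 reads in replicate 1 and 1407511 in replicate 2, of which 927914 and 1303420 lay on annotated genes. The mean model length per read was 2308 bases in replicate 1 and 1852 bases in replicate 2. The 5 cortical markers (Cyp11a1, Star, Nr5a1, Cyp21a1 and Hsd3b1) and the 5 medullary markers (Th, Dbh, Chga, Chgb and Pnmt) were read in both libraries, and the kidney markers Umod and Slc12a1 were at 0 in both. The cortical markers summed to 25830 and 17420 CPM (reads per 1000000 reads on annotated genes) in replicates 1 and 2. The medullary ones summed to 11400 and 6053 CPM. Markers of other tissues summed, in the same order, to 6724 and 16790 CPM for liver (Alb, Apoa1 and Ttr), 5931 and 5532 CPM for brown fat (Ucp1 and Cidea) and 1005 and 3696 CPM for red blood cells (Hba-a1 and Hbb-bs). The sums of the adrenal markers were thus lower and those of the liver and red cell markers higher in replicate 2. Not every adrenal marker fell: Pnmt had 593 of 927914 reads in replicate 1 and 922 of 1303420 in replicate 2, and Cyp11a1 had 6888 and 9700. The brown fat markers went in opposite directions: Ucp1 had 4130 and 3815 reads, and Cidea 1373 and 3395. The part of these markers in the differences below was not tested.

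Most Prefix models did stop early, but not all of them. Each model was placed on its parent, the most-read annotated transcript that starts with its introns, or for 120 models without one an unannotated model that does. The end lay inside the matching exon of the parent in 734 models (60.1%), in the intron that follows in 244 (20.0%), and beyond a kept intron but short of the last exon in 33 (2.7%). In the other 211 (17.3%) the model read through at least 1 kept intron into the last exon, and 162 of these lay within 100 bases of the parent's own end. A further 33 ended more than 100 bases short of the parent's end and 16 more than 100 bases past it. These 211 models keep an intron and reach the last exon, and for the 162 this goes against the label of early ends, so they are described separately. Taking the longest parent in place of the most-read one kept the placing of all 734 models inside an exon and of 238, 32 and 209 of the others.

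Sequences of 2 kinds show what lies at these ends. The first set covers 9 of the 10 genes whose member ending inside an exon before the stop codon had most reads, with 1 member each. Each line is the stretch of 30 bases richest in A within 100 bases of the model's end on the parent mRNA. Only stretches that lie within 1 exon and before the stop codon were considered. No stretch could therefore span an end at a donor, as in Sec62, Abcb1b and Hsp90b1. Capitals mark runs of 3 or more A:
Hsp90ab1: gcAAAgacaagAAAAAgAAAAcAAAgaaga
Eif5: AAAgAAAgAAAAggAAAAgAAAAAtagAAA
Sec62: aagAAAAAAcAAAAAAggAAAAAgAAAAAA
Son: aagAAAAAgaagAAAgAAAAAgAAAAAAAA
Abcb1b: tAAAAAggagaagAAAgAAAAgAAAcctgc
Hsp90b1: aagaagaagAAAAgAAAccAAAAActaaga
Srrm2: AAAgcAAAAgaagaagAAAAAgaagAAAga
Eif2s2: aacAAAAAAAAgAAAAAgaagaatgttAAA
Sf3b1: agaagaacAAAAAgAAAgAAAAAtaatgaa

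These stretches hold between 18 and 25 A in 30 bases. In Eif5 (chr12:111541728-111541757, plus strand) and Abcb1b (chr5:8805433-8805462, plus strand) the stretch starts at the first base after the model's end. In Abcb1b the model stops at an exon's last base and the stretch opens the next exon. In Srrm2 (chr17:23810008-23810037, plus strand) it starts 2 bases after the end, in Hsp90ab1 (chr17:45570401-45570430, minus strand) 15 bases after it, and in Son (chr16:91654721-91654750, plus strand) 22 bases after it. In Sec62 (chr3:30809965-30809994, plus strand), Hsp90b1 (chr10:86698321-86698350, minus strand) and Eif2s2 (chr2:154884348-154884377, minus strand) the stretch lies wholly before the end. Its last base is 32, 2 and 5 bases upstream of the end in these genes. In Sf3b1 (chr1:55003147-55003176, minus strand) it runs from 25 bases before the end to 4 bases after it. Coordinates are on mm10.

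The second set is taken from models that end at an annotated 3′ end, the 6 with most reads in the smaller library that end in an intron of the parent and the 2 that read through a kept intron, among those with a signal in the window. Each line is the model's last 30 bases, and capitals mark AATAAA or ATTAAA, the 2 most common poly(A) signals (in Ankrd11 2 overlapping copies):
Sik3: agggaagttgaAATAAAatggttttcatgg
Lrp6: taaagcttatacaATTAAAaaatataaaaa
Caprin1: cactcAATAAAtacttgttgaatgaatgaa
Tmem164: accttttggaAATAAAtggtccttaaattg
Ankrd11: atgtaaatgaaAATAAATAAAccagcttac
Fam149b: tgagttgtagaATTAAAggcatacaccaac
Mbd3: ttcAATAAActgatggtaggaacttgtgaa
Kank3: catgaaacatcctAATAAAagtatttctac

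The windows are chr9:46202856-46202885 (Sik3, plus strand), chr6:134540774-134540803 (Lrp6, minus), chr2:103767107-103767136 (Caprin1, minus), chrX:142838209-142838238 (Tmem164, plus), chr8:122897020-122897049 (Ankrd11, minus), chr14:20376258-20376287 (Fam149b, plus), chr10:80392539-80392568 (Mbd3, minus) and chr17:33822885-33822914 (Kank3, plus).

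These sequences were selected for what they show, so the shares over all members follow. A poly(A) signal (AATAAA or ATTAAA on the transcript strand in the last 50 bases) was found in 62 of 677 models ending inside an exon whose sequence could be read (9.16%), in 85 of 143 ending in the next intron (59.4%) and in 173 of 204 reaching the last exon (84.8%). The 143 are mostly ends that are already annotated: 121 stood at an annotated 3′ end, 78 of them with a signal. Of the 95 ends in purely intronic sequence only 4 could be read, 1 of them with a signal. The last 50 bases held a signal in 72.5% of annotated transcripts with 3 or more reads and in 80.0% of Suffix models (ISM models that lack the start of a transcript). Of all windows of 50 bases in annotated mRNAs, 3.7% held one. Over all members with sequence the share with a signal was 31.1%, with 68.0% in the members of replicate 1 and 25.2% in those of replicate 2. 

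An A-rich stretch was defined as 12 or more A in 20 bases or 6 A in a row. It lay within 100 bases of the end, on the parent mRNA, in 589 of 699 models ending inside an exon (84.3%), against 21.4% of all windows of 200 bases in annotated mRNAs. Among those with 3 or more reads in replicate 1 the share was lower, 30 of 52 (57.7%), against 585 of 683 (85.7%) in replicate 2. In the 20 bases directly after the end an A-rich stretch was found in 208 of 702 models ending inside an exon (29.6%), against 1.43% of all windows of 20 bases. On the genome, where the next 20 bases are covered by an annotated exon for 443 members of any kind, it was found in 139 (31.4%), with 17.3% in replicate 1 and 33.8% in replicate 2. The corresponding share was 12.3% in Suffix models and 7.11% in annotated transcripts. A window scanned on both sides of an end is longer than the 20 bases after it, so the 2 shares are not to be set against each other. 

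**Figure D1:**
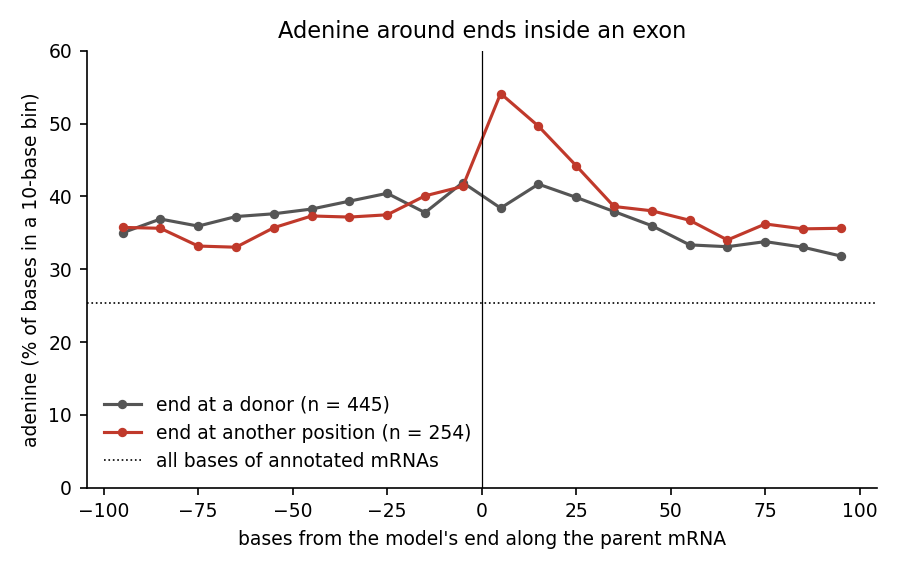
Adenine in 10-base bins along the parent mRNA, from 100 bases before to 100 bases after ends inside an exon, with the dotted line at the share over all bases of annotated mRNAs with 3 or more reads (25.4%). The 254 ends away from a donor reach 54.1% in the first 10 bases after the end, while the 445 ends at a donor stay between 31.8% and 41.9%.

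The exact position of an end has to be read with care. Of the 1222 ends, 1000 (81.8%) fell on the last base of an annotated exon, and 466 of the 734 ends inside an exon (63.5%) fell on the donor, the exon base next to the following intron. Of the other 268 ends inside an exon, 187 stood exactly at an annotated 3′ end, 77 at no annotated exon end, and the rest at the end of another annotated exon. Each table gives 1 model and 1 end for each set of introns. Whether these ends are the last bases of reads or were moved to annotated positions is not given in the sources used here, and was not tested. The plot of adenine by distance shows the peak at ends that do not lie on a donor.

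Members had a median of 6 exons (2 to 43) and a median length of 1534 bases (76 to 6320, the longest in Sptbn1, a spectrin). Ends inside an exon came after a median of 30.8% of the parent's spliced length, and ends in the next intron after 37.6%. Of 1063 members whose parent has an annotated stop codon, 882 ended before it. Most genes had a single member (765), 186 had at least 2, and Hnrnpd, an RNA-binding protein, had 6. Of the members, 1204 lay in protein-coding genes.

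**Figure D2:**
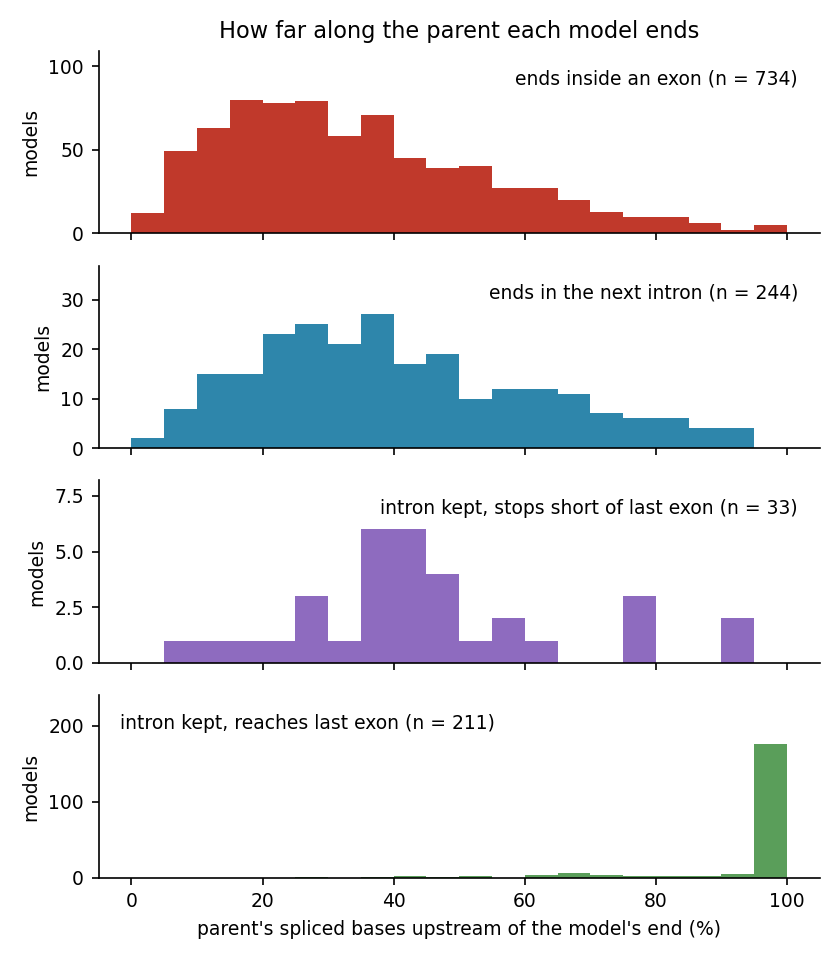
Number of members by the share of the parent's spliced bases that lie upstream of the model's end, in 5-point bins, for the 4 places an end can take. Ends inside an exon and in the next intron spread over the first part of the parent with medians of 30.8% and 37.6%, and the 211 models that reach the last exon pile up at 100%.

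By annotation, 554 members (45.3%) ended within 100 bases of an annotated 3′ end of the gene, 540 of them exactly there, 561 (45.9%) in an annotated exon away from any end, 100 (8.18%) in sequence that is intronic in every annotated transcript, and 7 outside the gene. At 78 of the 554, every transcript ending there is tagged in the annotation as having an incomplete 3′ end. The share at an annotated end was 69.8% among the members of replicate 1 and 41.6% among those of replicate 2, and the share in an intron 11.4% and 6.92%. The intronic share moved with the minimum, from 13.2% at 2 reads to 3.36% at 10.

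Replicate 2 held more Prefix reads, and the surplus lay in ends inside an exon. All Prefix models together took 5721 of 927914 reads in replicate 1 (0.617%, exact 95% interval 0.601 to 0.633) and 16510 of 1303420 in replicate 2 (1.27%, 1.25 to 1.29). Ends inside an exon made up 0.128% (0.121 to 0.136) and 0.886% (0.870 to 0.902), a ratio of 6.92, or 6.01 without Hsp90ab1. For models with an annotated parent alone the ratio was 6.66, and with the kind of end taken from each library's own model, in place of the library with more reads, 7.05. With the subtype Both (models that lack both ends of a transcript) counted together with Prefix, the shares were 1.15% and 1.41%, closer together than those of Prefix alone. Ends in the next intron made up 0.223% (0.213 to 0.233) and 0.213% (0.205 to 0.221), and Fisher's exact test, two-sided, gave p = 0.112. Models reaching the last exon went the other way, from 0.234% (0.224 to 0.244) to 0.132% (0.125 to 0.138). Intervals cover counting error only, since reads of 1 library are not replicates. Suffix reads were 6.47% and 8.36% in the same order, and model length per read was shorter in replicate 2, as given above. Their part in the difference was not tested.

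**Figure D3:**
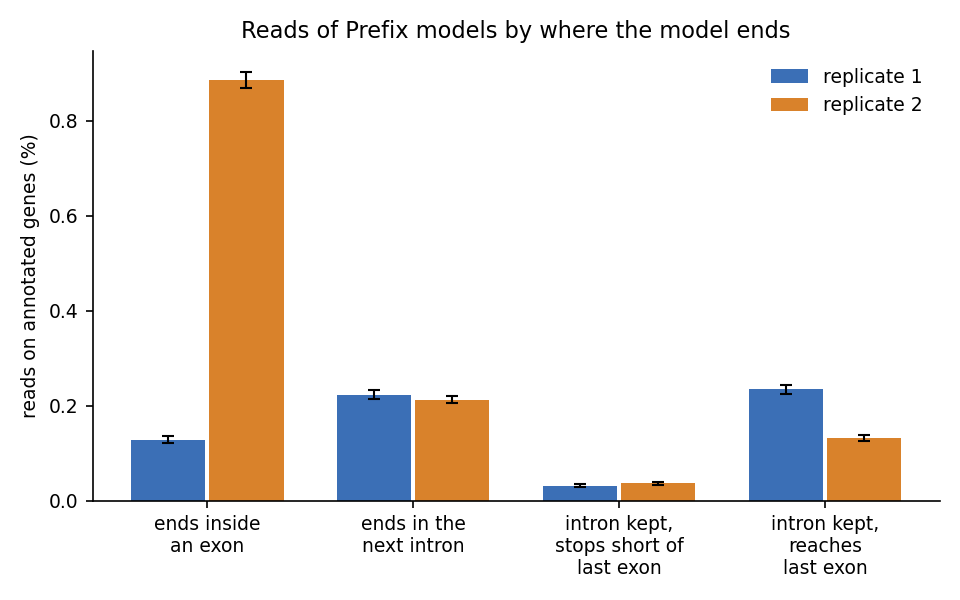
Reads of Prefix models as a percentage of reads on annotated genes in each library, by where the model ends, with exact 95% intervals that cover counting error only. Ends inside an exon rise from 0.128% to 0.886%, ends in the next intron stay at 0.223% and 0.213%, and models that reach the last exon go from 0.234% to 0.132%.

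As a result the 2 libraries hold different mixtures. Ends inside an exon made up 20.8% of Prefix reads in replicate 1 and 69.9% in replicate 2, and models reaching the last exon 37.97% and 10.4%. Of all members, 440 (36.01%) were found as Prefix models in both libraries, 75 in replicate 1 alone and 707 in replicate 2 alone. With models of any class counted, 492 members had all their introns in the library with fewer reads. Of the members of replicate 1, 76.9% were found in replicate 2, and of those of replicate 2, 33.0% in replicate 1. By kind, 152 of 734 ends inside an exon (20.7%) were in both, against 138 of 244 in the next intron (56.6%), 18 of 33 beyond a kept intron but short of the last exon (54.5%) and 132 of 211 that reach the last exon (62.6%). Of the 734, 716 had 3 or more reads in replicate 2 and 56 in replicate 1. The shares in both therefore depend on which library, and at what depth, selected the members. No such share is given here for models of other classes. Of the 440, 303 had the same end in both tables and 358 ends within 100 bases, and 391 had the same kind of end. Otherwise the kind is that of the library with more reads.

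For each gene the reads of all its Prefix models were compared with its other reads between the libraries by Fisher's exact test with Benjamini-Hochberg adjustment. Of 2981 genes tested, 157 (5.27%) passed an adjusted p of 0.05, 149 with a higher Prefix share in replicate 2 (5%) and 8 with a lower one (0.268%). A total of 340 genes had an unadjusted p under 0.05. The median share over the tested genes was 0.238% in replicate 1 and 1.43% in replicate 2. Of the 157, 155 hold a member, and nothing is read from this because the read minimum favours such genes. Counting only ends inside an exon, 166 of 1540 genes (10.8%) were higher in replicate 2 and 0 lower, with 279 and 1 at an unadjusted p under 0.05 by the same test. Counting only models that run past the exon, 5 of 2096 (0.239%) were higher and 9 lower (0.429%), with 36 and 39 at an unadjusted p under 0.05.

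**Figure D4:**
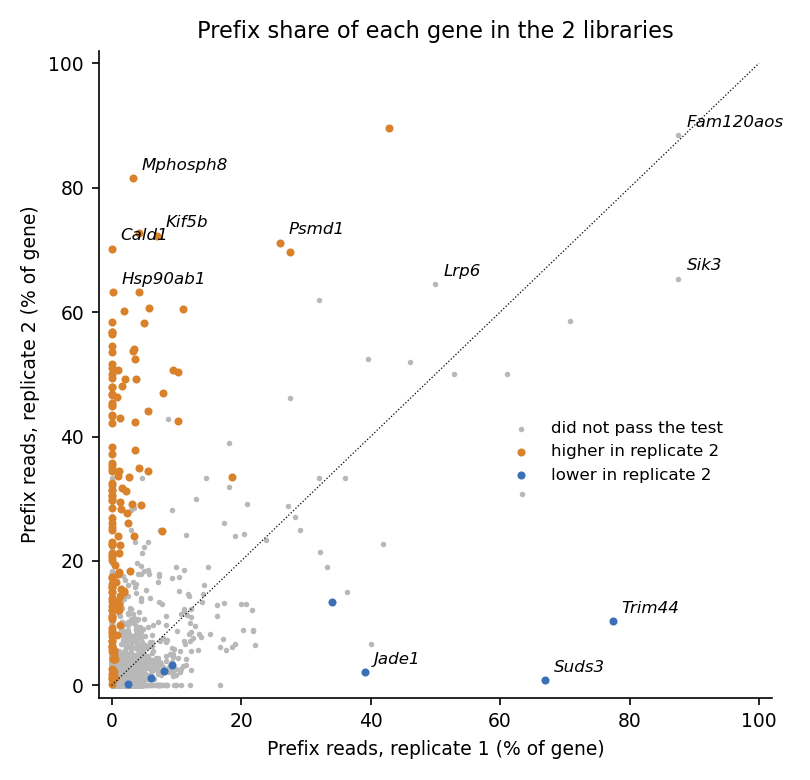
Prefix reads as a percentage of each gene's reads in replicate 1 and replicate 2 for the 2981 genes tested, coloured by the outcome of Fisher's exact test at an adjusted p of 0.05. The 149 genes higher in replicate 2 lie above the dotted line of equal shares. Not all of them lie along the left side: Son stands at 42.9% and 89.6%. Suds3 and Trim44, at the lower right, are genes whose same introns carry another class in replicate 2.

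Of the 5 genes with the largest rise, 4 are described, and their main members end inside an exon. Mphosph8, a chromatin reader of the HUSH silencing complex, had Prefix models in 1 of 30 reads (3.33%) and 22 of 27 (81.5%), with adjusted p = 8.01e-08 by Fisher's exact test. Cald1, which encodes the actin-binding caldesmon, had 0 of 40 and 40 of 57 (70.2%, adjusted p = 1.7e-11, Fisher's exact test). In both genes the shares of the libraries lie far apart, on 27 to 57 reads of the gene in a library.

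Kif5b, the heavy chain of the motor kinesin-1, had 7 of 100 reads (7.0%) and 224 of 310 (72.3%), with adjusted p = 4.08e-30 by Fisher's exact test. Its main member, 11 exons that stop at a donor, had 5 and 218 reads. Hsp90ab1, the constitutive cytosolic HSP90 chaperone, had 3 of 1274 reads (0.235%, 0.0486 to 0.687) and 1541 of 2440 (63.2%, 61.2 to 65.1). Its largest member, with 0 and 1261 reads, is also the member with most reads of all. It has 2 exons and 256 bases, and its parent is itself an unannotated model that starts inside the gene, so it lacks the gene's first exons as well. A 6-exon member from the annotated start, with the same end at base 45570445 of chromosome 17, had 3 and 226 reads. 

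Such inner fragments were few in number. Of the 120 members whose parent is an unannotated model, 17 are an inner run of introns of an annotated transcript. These 17 carried 6 reads in replicate 1 and 1351 in replicate 2, most of them the Hsp90ab1 reads. The 1102 members with an annotated parent start with the first intron of an annotated transcript.

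Other members with many reads followed the same direction. Eif5, a translation initiation factor, had 5 reads of its 7-exon member in replicate 1 and 164 in replicate 2, of 488 and 414 gene reads (1.02% and 39.6%). For Sec62, a protein of the translocon of the endoplasmic reticulum, the values of the 4-exon member were 24 of 219 (10.96%) and 124 of 230 (53.9%). Psmd1, a subunit of the proteasome's regulatory particle, had 36 of 142 (25.4%) and 97 of 156 (62.2%) on a 22-exon member that ends 51 bases short of the donor at the end of an annotated nonsense-mediated decay transcript. In all 3 genes the Prefix share of the gene passed the test, with adjusted p = 1.6e-59, 1.13e-26 and 6.86e-13 by Fisher's exact test.

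Son, a scaffold of nuclear speckles, had 9 of 21 reads (42.9%) and 120 of 135 (88.9%) on a 3-exon model that ends 5881 bases before the end of a very long exon. Abcb1b, a P-glycoprotein drug transporter, had 2 of 471 (0.425%) and 117 of 386 (30.3%), and Hsp90b1, the HSP90 of the endoplasmic reticulum, 2 of 294 (0.680%) and 98 of 442 (22.2%). The 2 reads of each of the last 2 genes in replicate 1 end in the next intron, 1006 and 124 bases from the end in replicate 2. All 3 genes were higher in replicate 2 in the gene test (adjusted p = 0.000181, 4.25e-33 and 9.3e-20, Fisher's exact test). A-rich stretches of these genes are printed above.

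A few ends inside an exon were well read in replicate 1 too. Eif5b, another initiation factor, had 19 of 48 reads (39.6%) and 33 of 105 gene reads (31.4%) on a 5-exon member ending at a donor, with 12 A in the next 20 bases of the mRNA. Plin1, which coats lipid droplets, had 27 of 464 (5.82%) and 23 of 673 (3.42%), and no A-rich stretch within 100 bases. Ccnl2, a cyclin tied to splicing, had 36 of 216 (16.7%) and 67 of 206 (32.5%). Its parent is an annotated retained-intron transcript, and its model ends 1764 bases before the end of that long exon, with ends that differ by 336 bases between the tables. Bmp1, a procollagen protease, had 25 of 87 (28.7%) and 17 of 89 (19.1%) on a 16-exon member whose parent is unannotated. Of these 4 genes, the Prefix share of Ccnl2 passed the gene test (adjusted p = 0.0125, Fisher's exact test).

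**Figure D5:**
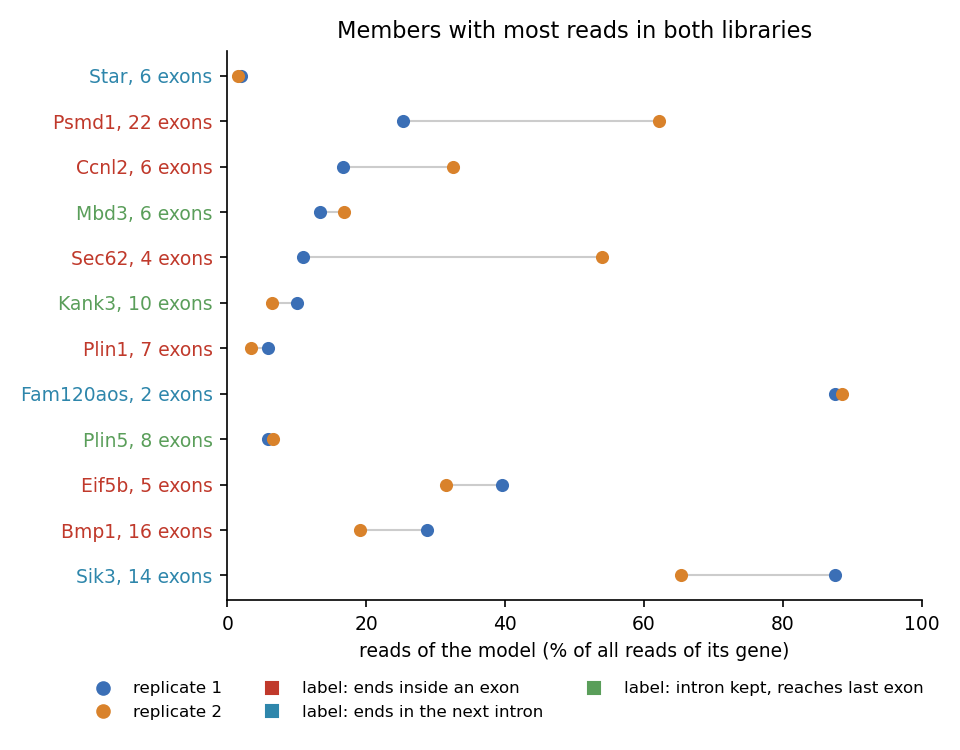
Reads of the 12 members with most reads in the smaller library, as a percentage of all reads of their gene, in replicate 1 and replicate 2, with names coloured by where the model ends. Psmd1 and Sec62 lie far apart, from 25.4% to 62.2% and from 10.96% to 53.9%, while Star, Fam120aos and Plin5 nearly overlap.

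Of ends in the next intron, 138 of 244 were found in both libraries. They lay a median of 678 bases past the donor (4 to 3845), and 69 lay in the parent's last intron. Of the 244, 123 ended at an annotated 3′ end, 122 of them at the end of a transcript that is not tagged incomplete. A further 95 ended in purely intronic sequence.

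The lead member here was Star, the steroidogenic acute regulatory protein that brings cholesterol to the inner mitochondrial membrane. Its 6-exon model kept the first 6 exons and stopped 540 bases into the last intron, at base 25812423 of chromosome 8, before the stop codon. It had 80 of 4075 reads (1.96%, 1.56 to 2.44) in replicate 1 and 61 of 3891 (1.57%, 1.20 to 2.01) in replicate 2, and the end was the same base in both. No annotated end of the gene lies within 100 bases, the nearest being 1202 bases away and tagged incomplete. The intervals overlap, and the Prefix share of Star did not pass the test (2.11% and 1.57%, adjusted p = 0.589, Fisher's exact test). The intronic bases were not read, since no genome of this build was used.

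In several genes of low coverage the intronic end was the main form. Fam120aos, a long noncoding RNA antisense to Fam120a, had 21 of 24 reads (87.5%) and 23 of 26 (88.5%) on a 2-exon model that stops 618 bases into the second intron. Sik3, a salt-inducible kinase, had 21 of 24 (87.5%, 67.6 to 97.3) and 17 of 26 (65.4%, 44.3 to 82.8) on a model of 14 exons that leaves out the last 11 introns of its parent. Lrp6, a Wnt co-receptor, had 16 of 32 (50%) and 20 of 31 (64.5%) on a 2-exon model that covers 7.10% of its parent. Slc25a23, a mitochondrial carrier of ATP-Mg and phosphate, had 16 of 24 (66.7%) and 17 of 29 (58.6%). None of these 4 genes passed the gene test (adjusted p = 1, 0.67, 0.982 and 0.982, Fisher's exact test), and at this depth the intervals of Sik3 leave room for a sizeable difference. Sik3, Lrp6 and Slc25a23 ended exactly at an annotated 3′ end, of a retained-intron transcript in Lrp6 and of protein-coding transcripts in Sik3 and Slc25a23.

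Most other intronic members made up less of their gene. Caprin1, an RNA-binding protein of stress granules, had 17 of 263 (6.46%) and 15 of 267 (5.62%), and Tmem164 17 of 50 (34.0%) and 10 of 42 (23.8%). Ccdc9 had 13 of 41 (31.7%) and 12 of 39 (30.8%) on the same 12-exon model. For these 3 members the intervals of the libraries overlap. Ccdc9 and Caprin1 each hold another member, with 13 and 14 reads in replicate 1, that carries another class in replicate 2 with 8 and 13 reads. The Prefix share of Ccdc9 was 63.4% and 30.8% (adjusted p = 0.071, Fisher's exact test), or 63.4% and 51.3% with the same introns counted in any class (adjusted p = 0.994, Fisher's exact test). Cyp11a1, the side-chain cleavage enzyme that starts steroid synthesis, had a 2-exon model ending 967 bases past its donor with 13 of 6888 reads (0.189%) and 13 of 9700 (0.134%). The rest of the 8 named members in purely intronic sequence went both ways. Ngly1 had 14 of 84 (16.7%) and 6 of 112 (5.36%), and Ppp2r5a 12 of 418 (2.87%) and 6 of 432 (1.39%). Gm3448 had 5 of 22 (22.7%) and 3 of 40 (7.5%), and Pkn2 5 of 13 (38.5%) and 4 of 35 (11.4%). 2610005L07Rik had 12 of 39 (30.8%) and 9 of 25 (36%), and AC110206.1 6 of 13 (46.2%) and 8 of 15 (53.3%). Intervals of the libraries overlap for each.

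Of the 211 models reaching the last exon, 186 kept 1 intron, 18 kept 2 and 7 kept 3 or more, with 4 in Ddx5, an RNA helicase. Mbd3, a subunit of the NuRD chromatin complex, had 30 of 225 reads (13.3%) and 49 of 292 (16.8%). Kank3 had 33 of 326 (10.1%) and 24 of 370 (6.49%), Plin5, a perilipin of oxidative tissues, 20 of 341 (5.87%) and 28 of 426 (6.57%) with ends that differ by 940 bases between the tables, and Mlf2 22 of 526 (4.18%) and 16 of 458 (3.49%). Intervals of the libraries overlap for each of these 4. Mrap, the accessory protein of the ACTH receptor, had 22 of 299 (7.36%) and 8 of 354 (2.26%), and the gene's Prefix share was lower in replicate 2 (8.03% and 2.26%, adjusted p = 0.0184, Fisher's exact test). Of the models beyond a kept intron but short of the last exon, the one with most reads lies in the noncoding gene Meg3. It had 5 of 42 (11.9%) and 32 of 204 (15.7%).

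Some of the calls come from the class name and not from the reads. The subtype depends on which unannotated models the same table holds, so a set of introns called Prefix in 1 library can carry another class in the other. This was so for 25 members in replicate 1, with 302 reads there, and 24 in replicate 2, with 308 reads. Suds3, a subunit of the Sin3 deacetylase complex, had 132 of its 197 reads on a Prefix model in replicate 1. In replicate 2 the same introns had 163 reads in class NNC (unannotated splice site). Counted together the gene's share was 67.0% and 68.5%, and the 2 libraries did not pass the test (adjusted p = 1, Fisher's exact test).

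The same held for other large calls. Trim44 had 24 Prefix reads in replicate 1, and 13 reads of the same introns in class NNC in replicate 2. Its share of 77.4% and 10.3% became 77.4% and 55.2% (adjusted p = 0.701, Fisher's exact test). Aifm2, a suppressor of ferroptosis, went from a fall of 9.38% to 3.22% that passed the test to 9.80% and 7.52% (adjusted p = 0.867, Fisher's exact test). Cyp21a1, the steroid 21-hydroxylase, had 46 Prefix reads in replicate 2 and 107 reads of the same introns in class NIC (unannotated combination of known splice sites) in replicate 1, so that its rise of 1.00 points turned into a difference of -0.45 points that did not pass (adjusted p = 0.384, Fisher's exact test). Agpat3, a lysophospholipid acyltransferase singled out after its values were seen, had 99 Prefix reads in replicate 2 and 84 in class NIC in replicate 1, and its rise of 16.0 points turned into a fall from 26.2% to 16.6% (adjusted p = 0.0145, Fisher's exact test).

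With the same introns counted in any class, 150 genes passed, all of them among the 157, with 145 higher and 5 lower in replicate 2. Of the 14 genes called for models running past the exon, 9 had such reads and 5 did not. The 5 are AC149090.1, Atp2a1, Cdv3, Jade1 and Wasl. Jade1, a subunit of a histone acetyltransferase complex, had 9 of 23 reads (39.1%) and 1 of 47 (2.13%), with adjusted p = 0.00294 by Fisher's exact test over all Prefix models. AC149090.1, which lies on an unplaced scaffold, had 50 of 147 (34.0%) and 22 of 164 (13.4%) over all Prefix models (adjusted p = 0.000863, Fisher's exact test). Its models running past the exon alone had 50 and 14 reads (34.0% and 8.54%). Cdv3 had 0 and 17 reads of models running past the exon (36.2% of its reads in replicate 2), and Wasl, an activator of actin branching, 0 and 13 (44.8%).

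Counts for 4 gene lists follow. Members lie in 687 of all 2981 genes tested, but the lists also include genes that could not be tested. Because a member needs a minimum of reads, holding one depends on the depth of the gene. The counts of genes that hold a member are therefore not compared between the lists or with all genes. Of 19 steroidogenesis genes, 8 hold a member (Star, Cyp11a1, Cyp21a1, Cyp11b1, Cyp11b2, Fdx1, Mrap and Scarb1), and of the 15 that could be tested 2 were higher in replicate 2, Cyp21a1 and Cyp11b1, and 1 lower, Mrap. Over all 2981 genes tested the shares were 5% higher and 0.268% lower. The rise of Cyp21a1 is the change of class described above. Cyp11b1, which makes corticosterone in the inner cortex, had Prefix models in 25 of 4696 reads (0.532%) and 39 of 3102 (1.26%), with adjusted p = 0.0168 by Fisher's exact test. Cyp11b1 and Cyp11b2 are close neighbours of like sequence, so reads may have been split between them. The median difference over the tested genes of the list was 0.344 points, against 0.704 over all genes tested.

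Of 21 genes of the chromaffin medulla, Pnmt, Chga and Chgb hold a member. Chga and Chgb, granins of the secretory granules, were the 2 of 6 tested genes that passed, both higher in replicate 2, where 5% of all tested genes were higher. Chga had 2 of 3617 Prefix reads (0.0553%) and 52 of 2898 (1.79%), with adjusted p = 3.86e-14 by Fisher's exact test, and Chgb 6 of 3947 (0.152%) and 31 of 2555 (1.21%), with adjusted p = 2.67e-06. In replicate 2 their main members, with 42 and 30 reads, end inside a coding exon, 302 and 1408 bases short of the donor. In replicate 1 the models with the same introns, with 1 and 6 reads, end at the parent's own 3′ end with the last intron kept, so the kind of end differs between the libraries in both genes. Pnmt, which makes adrenaline, had 7 of 593 (1.18%) and 9 of 922 (0.976%) on a model that keeps its last intron. The list's median difference was 0.744 points.

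Among 13 genes known for early or intronic poly(A) sites, Papola alone holds a member, and of the 3 that could be tested 0 passed (5.27% of all tested genes did), with 0 at an unadjusted p under 0.05 by Fisher's exact test. Papola, the canonical poly(A) polymerase, had 4 of 125 reads (3.20%) and 2 of 91 (2.20%) on a 10-exon model ending 303 bases into an intron, at an annotated end with a poly(A) signal. Of 23 genes of the cleavage machinery and U1 snRNP, 3 hold a member (Wdr33, Papola and Snrnp70) and 0 of 13 tested passed, against the same 5.27%, with Wdr33 at an unadjusted p of 0.0246 by Fisher's exact test. Genes of these lists that hold no member had fewer than 3 reads on any Prefix model in each library, which at their depth does not show that early ends are absent.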

How the data were processed

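Long-read RNA sequencing of 2 adrenal gland libraries was used, as deposited by the authors: whole-number read counts per transcript model and the matching model annotations. Reads were assigned to mm10 and GENCODE M21 per the file headers and accompanying notes, and the models carry TALON as their source. The aligner and tool versions were not given in the sources used here. The models, lists and comparisons were chosen with earlier results of these data known. Samples were grouped by the tissue label.

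All values were computed with Python 3.11.15, numpy 2.4.6, pandas 2.3.3 and scipy 1.17.1. The deposited counts were used without scaling. Members had 3 or more reads in either library. A gene entered the test with 20 or more reads in each library and at least 1 Prefix read, and all Prefix reads entered, also those of models under the minimum. Fisher's exact test, two-sided, was adjusted with Benjamini-Hochberg over 2981 genes. With 1 library a replicate there was no spread to estimate, so no negative binomial model was fitted. Intervals are exact (Clopper-Pearson, 95%) and cover counting error.

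Exons of the 141862 annotated transcripts in the deposited annotation equalled those of GENCODE M21, and sequence was read from its transcripts, so that bases intronic in every transcript were not used. Named are the 12 models with most reads in the smaller library, the 8 such models in an intron, the 5 largest rises and falls of the gene test, list genes with a member, and the leading member of each kind of end. No sequence of chromosome 18 was considered for printing. 1 gene among the largest rises and 1 sequence that this rule selects are not reported here. Further members of large read number were added after their values were seen. Alternatives covered minimum reads, window width, motif definitions, counting by read, the comparison class and the members or reads of each library alone.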

Additional observations from a re-analysis of the deposited data

Results flagged for a closer look

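Prefix models outside annotated genes were not part of any comparison. They carried 7 reads in replicate 1, on 7 models, and 37 reads in replicate 2, on 12 models. They are listed because they lie outside the genes to which the members belong, and no control sample exists to set them against.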

How the results depend on the processing

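Of 43 alternatives for the summary results, 33 left a result within 1.5 times the count or within the spread of the 2 libraries, and 10 did not. The 33 include some that could not come out otherwise, so they are no measure of stability. Leaving out single-exon models removed none. The Prefix share of reads is the mean of the 2 libraries, so each library alone lies within their spread. The 157 genes that passed became 99 with a minimum of 50 reads, 98 of them shared, and 14 when only models running past the exon were counted, an alternative chosen after seeing the data. With a minimum of 10 reads 165 passed, with other reads of Known class alone 168. The share of ends in an intron was 3.36% at 10 reads and 13.2% at 2, and an A-rich stretch defined as 15 of 20 A held in 11.7%. Members of 1 library alone (3 or more reads there) gave 6.92% to 11.4% for ends in an intron and 41.6% to 69.8% for annotated ends. They gave 17.3% to 33.8% for A-rich stretches and 25.2% to 68.0% for poly(A) signals. Their ends were still taken from the library with more reads. Of such members 33.0% to 76.9% were found in both, a share that uses the reads of both libraries. The Prefix share of reads was 0.617% to 1.27% in each library alone. Counting the same introns in any class, also chosen after seeing the data, reversed Suds3 (1.46 points), Cyp21a1 (-0.45 points) and Agpat3 (-9.63 points). The ratio of reads ending inside an exon, 6.92, was 6.01 to 7.05 under 3 alternatives, also chosen after seeing the data. No Prefix model has a single exon, so leaving these out changed nothing, and the gene test could not be run without either library. No paired analysis was possible because there is 1 group. Depth limits the genes of low coverage: with 24 reads, as in Sik3, an interval spans about 67.6% to 97.3%.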
